A study of Drosophila melanogaster with 10 samples.

Results

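The core apoptosis genes of Drosophila are a set of 10: rpr, hid, grim, Diap1, Dronc, Dark, Drice, Dcp-1, Buffy and Debcl. They were listed by gene symbol, with earlier results of these arrays known, and no measured value enters the rule. Of the 10, 6 had a probe set of their own in the platform annotation (grim, Dronc, Dark, Dcp-1, Buffy and Debcl), out of 11982 named genes in the table. Dark had 2 probe sets, so 7 probe sets are described. rpr, hid, Diap1 and Drice are not analysed here, and nothing is said of the pathway steps that rest on them.

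In flies, programmed cell death is released when the antagonists Rpr, Hid and Grim bind the inhibitor of apoptosis Diap1 and free the caspases it holds. The initiator caspase Dronc is then activated on the adaptor Dark, the fly counterpart of Apaf1, and cleaves the effector caspases Drice and Dcp-1. Buffy and Debcl are the fly members of the Bcl-2 family, of which Debcl was described as pro-apoptotic and Buffy as able to counter it. Larval salivary glands are destroyed at metamorphosis after pulses of the steroid ecdysone, and this death draws on the same caspases together with autophagy.

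The linker histone H1, a chromatin protein bound to the DNA that joins nucleosomes, was targeted by RNAi in cultured cells and in an organ, and each was set against a control RNAi. Kc cells, an embryonic Drosophila line with haemocyte-like properties, were grown at 25 °C and given dsRNA against GFP (2 arrays) or against H1 (2 arrays). Per the labels each exposure took 1 hour in medium without serum, on days 0, 2 and 4, and RNA followed on day 6, whereas the series record speaks of a single treatment. Salivary glands came from transgenic flies in which Tub-Gal4, a ubiquitous driver, expressed RNAi against nau (Nautilus, a muscle transcription factor; 3 arrays) or against H1 (3 arrays). All gland flies were crossed at 18 °C and shifted to 29 °C from the embryo on, so glands of both groups carried the driver and an RNAi construct in the whole animal. The age or stage of the animals is not given, nor whether the arrays are independent cultures or dissections. If they are not, the p-values below reflect technical spread only.

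Signals were log2 of the deposited array intensity, and control probe sets that match no fly transcript (Tag) had a 95th percentile of 3.55, used below as the background level. Arrays within a group correlated at r = 0.9983 in Kc cells and at 0.9886 to 0.9937 in glands. No probe set carried the symbol of the H1 gene, so its depletion was not measured. The control target nau was 5.68 ± 0.29 in the glands labelled nau RNAi and 3.47 ± 0.10 in those labelled H1 RNAi (SD, n = 3 each), at least 4.38-fold lower in the latter (limma adjusted p = 1.265e-06), which runs against the label of the control. In Kc cells nau read 5.96 ± 0.09 with GFP RNAi and 7.02 ± 0.02 with H1 RNAi (SD, n = 2 each), a difference of 1.06 (adjusted p = 0.00632, and 0.05982 to 0.07304 if either H1 array or GFP array a is dropped). Why nau read higher in the glands labelled nau RNAi was not tested. The gland groups are called by their labels throughout, and every gland direction below rests on those labels. Were the labels exchanged, each gland change would have the opposite sign and the gland minus Kc differences would have other values. Of 15 salivary gland markers, 14 were measured and all 14 lay above background in both gland groups. So did all 5 measured fat body markers, with Lsp2 at 14.06 in nau glands and 14.08 in H1 glands. What share of the RNA came from cells other than gland cells was not tested. In Kc cells 10 of the 12 haemocyte markers lay above background, and gcm and lz did not. Above the highest Tag value of 4.08 lay 8 of 12 with GFP RNAi and 7 with H1 RNAi. Between these Kc groups 3 of 12 were called lower with H1 RNAi (He -3.46, NimB5 -2.43 and eater -2.03) and 0 higher. The part of these marker changes in the Kc results below was not tested.

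Several measures moved with the gland labels, and their part in the results below was not tested. The summed linear intensity of the 14 gland markers was 136224 to 140498 in glands labelled nau RNAi and 42258 to 50413 in those labelled H1 RNAi, with 10 of 14 called lower and 1 higher. Haemocyte markers went the other way, with 8 of 12 called higher and 1 lower, and a summed intensity of 2486 to 2925 against 3446 to 4095. Of the haemocyte markers, gcm and lz stood at background in the nau glands and lz in the H1 glands. Fat body markers summed to 50784 to 54030 against 57302 to 59372, with 3 of 5 called higher and 1 lower. In the H1 glands this sum exceeded that of the gland markers. Neuron and glia markers summed to 101 to 103 against 173 to 573, with 4 of 7 called higher and 1 lower, and cac, Nrt and repo were at background in the nau glands. Imaginal cell markers summed to 653 to 715 against 1067 to 1327 (2 of 7 higher, esg and en at background in the nau glands), and muscle markers to 93 to 156 against 116 to 251 (1 of 4 higher, Act88F at background in the H1 glands). Fewer cells of a type and less RNA per cell cannot be told apart in such bulk samples. The 3′ minus 5′ differences of control transcripts, which rise as RNA or its labelling shortens, were larger in the H1 glands for the first probe pairs of actin (2.29 ± 0.18 against 1.91 ± 0.10), GAPDH (2.53 ± 0.09 against 2.13 ± 0.05) and eIF-4a (2.48 ± 0.07 against 2.17 ± 0.09), on the log2 scale. For the second pairs of actin and GAPDH the groups overlapped.

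H1 RNAi in glands went with opposite moves inside this small gene set. The effector caspase Dcp-1 rose by 4.02 on the log2 scale, the Bcl-2 family gene Debcl rose by 1.05, the adaptor Dark fell by 2.01 and the other Bcl-2 family gene, Buffy, fell by 1.96. The initiator caspase Dronc and the antagonist grim were not called (adjusted p under 0.05 in limma is a call). These 4 of 6 genes stand beside 47.2% of all named genes called in glands. In Kc cells 0 of 6 were called, where 5.04% of all genes were, and 1 of 6 had an unadjusted p under 0.05, as did 17.4% of all genes. The plot of all members by array shows these levels side by side.

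**Figure D1:**
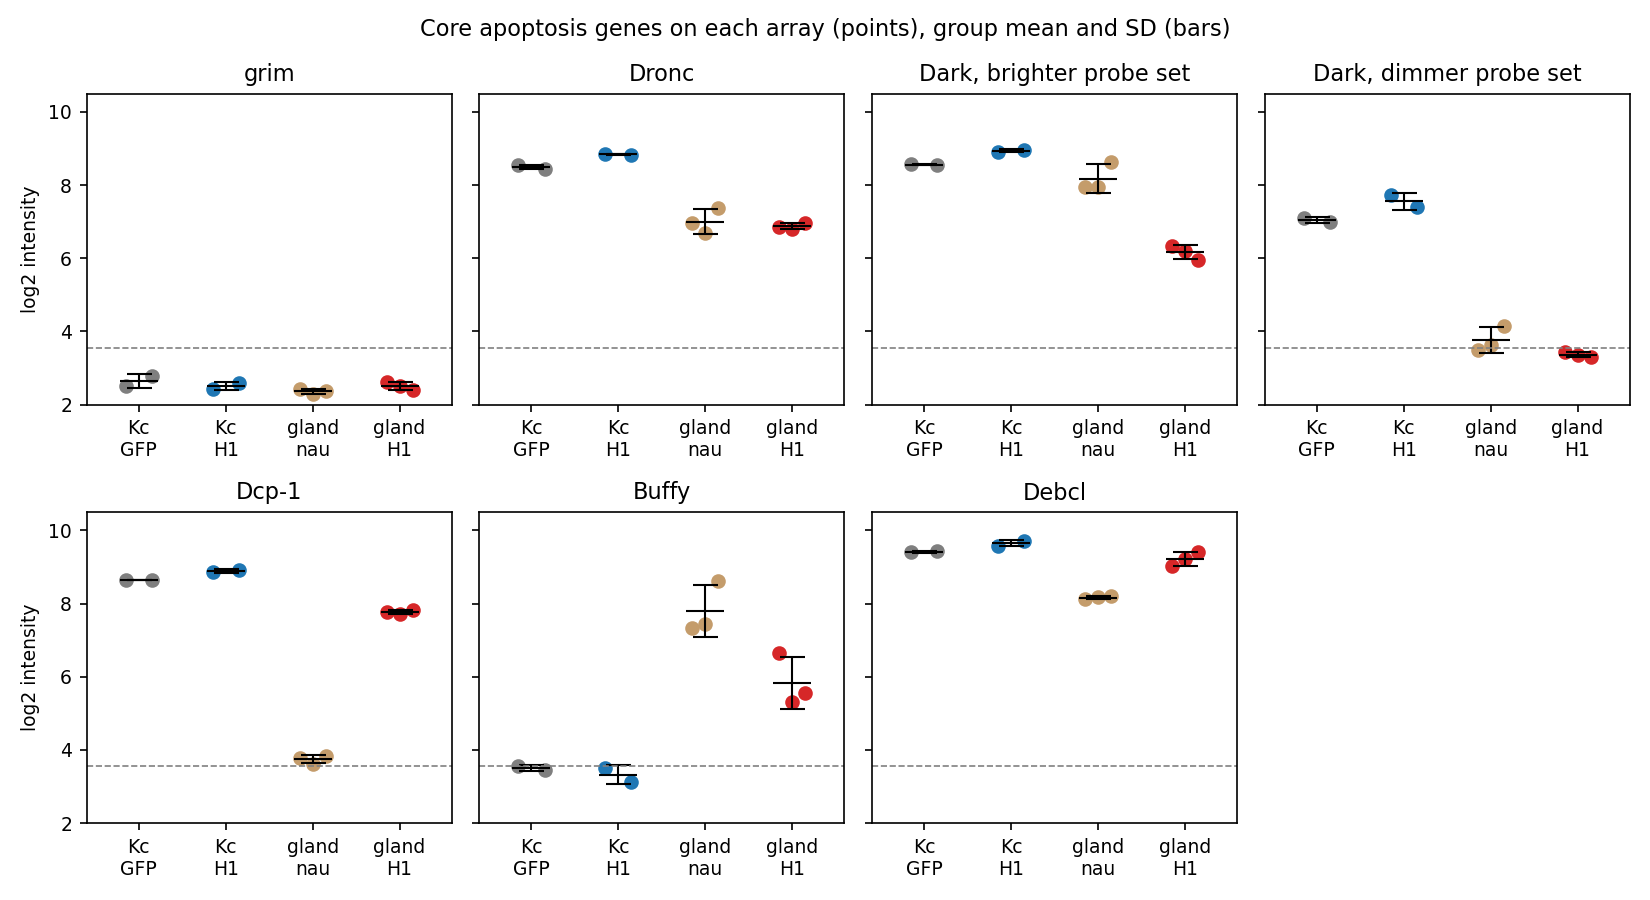
Log2 intensity (y axis) of each core apoptosis probe set on each array (points) in the 4 groups, with the group mean and SD (bars, n = 2 in Kc groups and n = 3 in gland groups). The dashed line is the background level of 3.55. The 3 Dcp-1 points of the glands labelled nau RNAi sit just above it and those of the H1 glands between 7.71 and 7.83.

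grim, one of the antagonists that bind Diap1, was not seen above background on any array. Its log2 intensity was 2.50 and 2.77 in Kc cells with GFP RNAi, 2.42 and 2.58 with H1 RNAi, 2.44, 2.29 and 2.37 in glands labelled nau RNAi, and 2.62, 2.51 and 2.39 in glands labelled H1 RNAi. All 10 values lie under 3.55, and the H1 group overlaps its control in both systems. The estimated differences, -0.14 in Kc cells (limma adjusted p = 0.7634) and 0.14 in glands (adjusted p = 0.2941), were therefore differences between signals at background, and no fold is given.

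Dronc, the initiator caspase, was measured well above background on every array and was lower in glands than in Kc cells. Its log2 intensity was 8.54 and 8.45 in Kc cells with GFP RNAi and 8.85 and 8.82 with H1 RNAi. In glands it was 6.95, 6.68 and 7.37 with nau RNAi and 6.86, 6.80 and 6.96 with H1 RNAi. The gland groups overlapped, while in Kc cells both H1 arrays lay above both GFP arrays. The gland difference was -0.13 (SE 0.152, 95% confidence interval -0.47 to 0.22, limma adjusted p = 0.5392), so that these arrays leave room for a change of up to about 0.47 down or 0.22 up. In Kc cells the difference was 0.35 (SE 0.186, interval -0.07 to 0.76, adjusted p = 0.4697).

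Dark, the adaptor on which Dronc is activated, fell in glands by its brighter probe set. That probe set read 7.95, 7.96 and 8.62 in the glands labelled nau RNAi and 6.33, 6.21 and 5.96 in those labelled H1 RNAi. The groups did not overlap, and the lowest nau array stood well above the highest H1 array. The change was -2.01 (SE 0.175, interval -2.40 to -1.61, 4.02-fold lower, limma adjusted p = 1.315e-05). In Kc cells it read 8.56 and 8.55 with GFP RNAi and 8.91 and 8.96 with H1 RNAi, a difference of 0.38 (SE 0.214, interval -0.10 to 0.86, adjusted p = 0.509) that was not called although the arrays did not overlap.

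The dimmer Dark probe set gave no such call. It read 7.11 and 6.98 in Kc cells with GFP RNAi and 7.72 and 7.39 with H1 RNAi, and in glands 3.50, 3.62 and 4.16 with nau RNAi and 3.45, 3.36 and 3.30 with H1 RNAi. All H1 gland arrays and 1 of the 3 nau arrays were at background, so this probe set had little room to fall in glands. Its gland difference was -0.39 (SE 0.165, limma adjusted p = 0.08704), and at the background level the H1 glands were at least 1.15-fold lower. The size of the Dark fall therefore rests on 1 of 2 probe sets, and with the mean of both it was -1.20 (adjusted p = 0.0002638). An annotated antisense RNA, asRNA:CR44390, overlaps Dark and has no probe set of its own.

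Dcp-1, an effector caspase that carries out the cleavage of cell proteins, had the largest change among the 6 genes in glands. It read 3.79, 3.62 and 3.84 in the glands labelled nau RNAi and 7.78, 7.71 and 7.83 in those labelled H1 RNAi. On the linear scale these are intensities of 13.8, 12.3 and 14.3 against 219.6, 209.6 and 227.5. The nau arrays lay above the Tag 95th percentile but under the highest Tag value of 4.08, so Dcp-1 was close to undetected in these glands. The increase was 4.02 (SE 0.0833, interval 3.84 to 4.21, 16.3-fold, limma adjusted p = 1.766e-09), many times the SD within either group (0.12 and 0.06). Leaving out each array in turn moved it only between 3.96 and 4.07.

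In Kc cells Dcp-1 was abundant from the start. It read 8.64 and 8.65 with GFP RNAi and 8.86 and 8.93 with H1 RNAi. Both H1 arrays were higher, by 0.25 on average (SE 0.102, interval 0.02 to 0.48), with an unadjusted p of 0.03452 that became 0.2773 after adjustment in limma. The H1 glands lay below both Kc groups, with 7.77 ± 0.06 (SD, n = 3) against 8.64 ± 0.0063 in Kc cells with GFP RNAi and 8.89 ± 0.05 with H1 RNAi (n = 2 each). The order of the 4 groups was thus Kc with H1 RNAi, Kc with GFP RNAi, glands with H1 RNAi and glands with nau RNAi, and no neighbours in it overlapped.

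Buffy stood well above background in glands and near it in Kc cells. It read 3.58 and 3.45 in Kc cells with GFP RNAi and 3.50 and 3.14 with H1 RNAi. It read 7.32, 7.44 and 8.62 in the glands labelled nau RNAi and 6.64, 5.32 and 5.55 in those labelled H1 RNAi. The gland groups did not overlap, but array c of the nau group and array a of the H1 group stood above their partners and the SDs were wide (0.72 and 0.71). The change was -1.96 (SE 0.392, interval -2.84 to -1.08, 3.88-fold lower, limma adjusted p = 0.002905). It was -1.54 without nau array c and -2.36 without H1 array a, and stayed called each time.

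Debcl, described as a pro-apoptotic Bcl-2 family member, was high everywhere and rose in glands. It read 8.13, 8.17 and 8.20 in the glands labelled nau RNAi and 9.04, 9.22 and 9.40 in those labelled H1 RNAi, with no overlap. The increase was 1.05 (SE 0.0986, interval 0.83 to 1.27, 2.07-fold, limma adjusted p = 2.116e-05). In Kc cells it read 9.40 and 9.44 with GFP RNAi and 9.58 and 9.71 with H1 RNAi. That difference of 0.23 (SE 0.121, interval -0.04 to 0.50, adjusted p = 0.4519) was not called. The brightest H1 gland array nearly reached the dimmer GFP array of Kc cells (9.3967 against 9.3975), so these neighbouring groups are separated by almost nothing.

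Of the 4 genes called in glands 2 were higher and 2 lower, where 23.6% of all genes were called higher and 23.6% lower. The groups did not overlap for the same 4 genes, as was so for 54.7% of all genes. The median change of the 6 was 0.01, against -0.04 over all genes, since gains and losses balanced. The Kc arrays did not overlap for 4 of 6 genes (Dronc, Dark, Dcp-1 and Debcl), all higher with H1 RNAi, against 59.3% of all genes in either direction and 24.8% higher. The median of the 6 in Kc cells was 0.24, against -0.03 over all genes. Fitting the Kc arrays alone called Dronc (limma adjusted p = 0.04028) and Dark (adjusted p = 0.02592), so the count of 0 depends on pooling the spread with glands. That fit called 2152 of 18769 probe sets, where the pooled fit called 771.

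**Figure D2:**
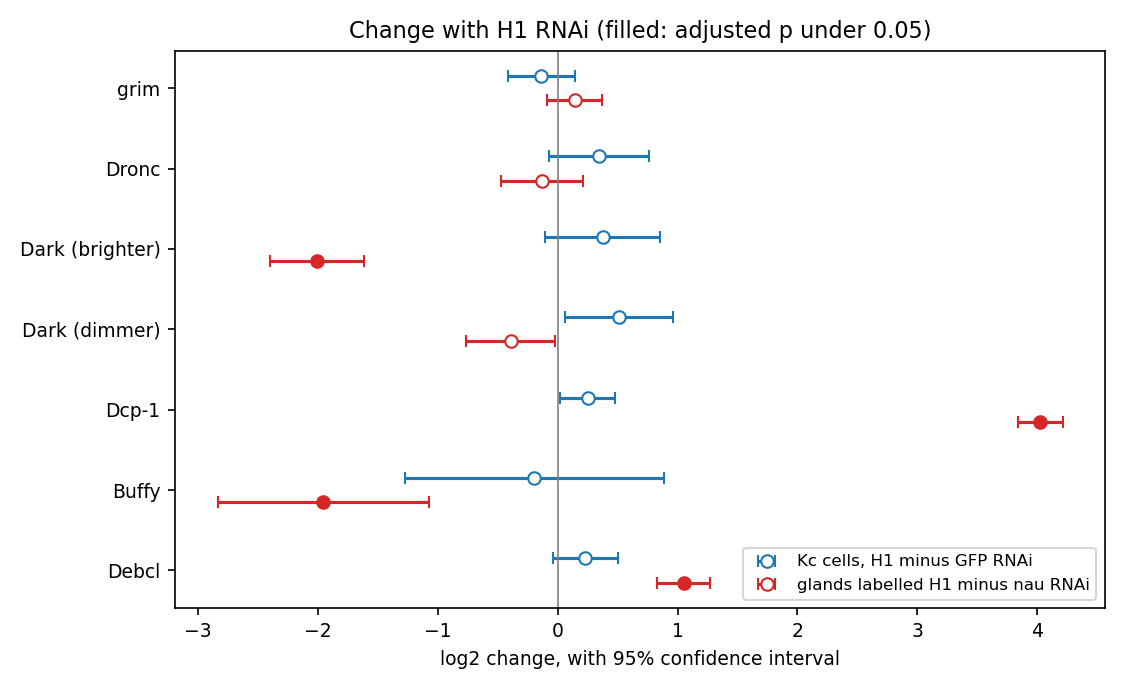
Log2 change with H1 RNAi (x axis, points) and its 95% confidence interval (bars) for each core apoptosis probe set, in Kc cells (n = 2 against 2) and in glands (n = 3 against 3). Filled points had an adjusted p under 0.05, which held for the gland changes of Dcp-1, Debcl, Buffy and the brighter Dark probe set and for no Kc change.

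The effect of H1 RNAi differed between glands and Kc cells for 3 of the 6 genes, tested as the gland change minus the Kc change. The difference was 3.77 for Dcp-1 (SE 0.132, limma adjusted p = 2.746e-07), 0.82 for Debcl (SE 0.156, adjusted p = 0.003683) and -2.38 for Dark (SE 0.276, adjusted p = 0.0002255). Among all named genes 32% were called in this test, 17.2% higher and 14.7% lower. The dimmer Dark probe set gave -0.90 (SE 0.261, adjusted p = 0.02992), but its signal in H1 glands was at background, so that value has no settled size. For Buffy the difference of -1.76 (SE 0.62) had an adjusted p of 0.06565, with Kc values at background. It was called without nau gland array a (adjusted p = 0.04977) and without H1 gland array a (-2.17, adjusted p = 0.01158). Dronc (-0.47, adjusted p = 0.1982) was called only without nau gland array b (-0.63, adjusted p = 0.04305) among the arrays left out. grim gave 0.28 (adjusted p = 0.2552).

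The starting levels of the control groups also differed. Here tissue, control RNAi and culture differ together and cannot be told apart, and the nau arrays are shared with the gland comparison above. The 3′ minus 5′ differences of control transcripts were larger in nau glands than in Kc cells with GFP RNAi for every probe pair. They were 1.91 against 0.44 for the first pair of actin, 2.13 against 0.83 for GAPDH and 2.17 against 0.56 for eIF-4a. For the second pairs they were 2.77 against 1.19 (actin) and 4.61 against 2.54 (GAPDH). Their part in the levels below was not tested. Between glands with nau RNAi and Kc cells with GFP RNAi, Dcp-1 was lower in glands by 29.7-fold (log2 difference -4.89, SE 0.0931, limma adjusted p = 1.149e-10), Dronc by 2.81-fold (-1.49, SE 0.170, adjusted p = 3.235e-05) and Debcl by 2.38-fold (-1.25, SE 0.11, adjusted p = 4.536e-06). Buffy was at least 18.8-fold higher in glands (adjusted p = 1.433e-05). These 4 of 6 calls, 1 higher and 3 lower, stand beside 59.5% of all genes called, 24.1% higher and 35.4% lower.

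The Dark probe sets disagreed on the starting level. The brighter one differed by -0.38 with overlapping arrays (limma adjusted p = 0.1358), and by -0.60 once nau gland array c was left out (adjusted p = 0.002699). The dimmer one was 9.76-fold lower in glands (-3.29, SE 0.184, adjusted p = 1.591e-07), where 1 of 3 nau arrays was at background. The mean of both gave -1.83 (adjusted p = 1.221e-05). The signal of grim differed by -0.27 (adjusted p = 0.0723) under the background level, and by -0.41 without GFP array a (adjusted p = 0.03884).

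Between the H1 groups, 5 of 6 genes were called, where 60.9% of all genes were (23.4% higher and 37.5% lower). The 3′ minus 5′ differences of control transcripts were again larger in glands for every probe pair, with 2.29 against 0.27 for the first actin pair. Dcp-1 was still lower in glands than in Kc cells, with a log2 difference of -1.12 where the controls had -4.89, and so was Debcl, with -0.43 where the controls had -1.25. The difference was -2.76 for Dark, by its brighter probe set, and -1.96 for Dronc. Buffy was at least 4.87-fold higher. The full order of levels for Dronc was Kc with H1 RNAi, Kc with GFP RNAi, glands with nau RNAi and glands with H1 RNAi, of which the last pair overlapped. Dark, by its brighter probe set, had the same order, with overlap between Kc cells with GFP RNAi and nau glands. For Buffy the order was nau glands, H1 glands, Kc with GFP RNAi and Kc with H1 RNAi, the last pair overlapping, and all neighbours overlapped for grim.

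The wider death pathway was read from 5 lists with 58 genes, of which 43 were measured. In Kc cells 2 were called higher and 2 lower, where 3.46% and 1.59% of all genes were, and in glands 10 higher and 15 lower, where 23.6% of all genes were called in each direction. That share is the background for the gland counts of each list. These lists were written with earlier results of the same arrays known, so their counts are descriptions.

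Among 7 measured genes of other inhibitors of apoptosis and their regulators, 1 was called higher and 3 lower in glands, with a median change of -0.29. Bruce, a giant ubiquitin-conjugating protein with an inhibitor of apoptosis domain, was 8.01, 7.97 and 8.05 in nau glands and 7.18, 7.09 and 7.16 in H1 glands, a fall of 0.87 (limma adjusted p = 1.387e-05). In Kc cells Bruce moved the other way, from 9.28 and 9.13 to 9.81 and 9.87, a rise of 0.63 (SE 0.0932, adjusted p = 0.004618) and the only call of this list there. That call was lost without GFP array b (adjusted p = 0.06821) or H1 array b (adjusted p = 0.06295). Diap2, a relative of Diap1, fell by 0.56 in glands and morgue, which promotes the loss of Diap1, fell by 0.61. Det, the fly survivin relative, rose by 0.55.

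Of the other caspases and the adaptor Fadd, 4 of 5 were measured. In glands Strica, a caspase with a long prodomain, fell from 10.28 ± 0.26 to 9.29 ± 0.11 (SD, n = 3 each), and Dredd, the caspase of the Imd immune pathway, from 9.76 ± 0.08 to 9.07 ± 0.07. Damm, a further caspase, lay under background in nau glands (3.09) and at 3.87 in H1 glands, at least 1.25-fold higher (adjusted p = 0.0001013). Its H1 gland arrays (3.80, 3.99 and 3.83) all lay under the highest Tag value of 4.08. The median of the list was -0.27 in glands. Dredd also fell in Kc cells, by 0.47 (limma adjusted p = 0.04277), the only call of the list there, which was lost without each array but nau array c and H1 gland array a (adjusted p = 0.05372 to 0.3563). Dcp-1 and, close to background, Damm thus rose in glands while Strica and Dredd fell, and Dronc was not called.

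Upstream inducers of death were split, with 4 of 12 measured genes higher and 3 lower in glands and a median of 0.01. p53, the damage-response transcription factor that can switch on death genes, was 7.90, 7.76 and 7.78 in nau glands and 9.51, 9.48 and 9.84 in H1 glands, a rise of 1.80 (SE 0.106, limma adjusted p = 1.05e-06). In Kc cells p53 rose by 0.73 (adjusted p = 0.0132), from 10.33 ± 0.06 to 11.06 ± 0.04 (SD, n = 2 each). A dimmer p53 probe set rose by 1.40 in Kc cells (adjusted p = 0.001449) and read -0.23 in glands, where it was at or near background and not called. lok, the fly Chk2 checkpoint kinase, rose by 0.95 in glands. By its brighter probe set egr, the TNF-type ligand Eiger, rose by 0.76 there and fell by 0.51 in Kc cells (adjusted p = 0.03202). A dimmer egr probe set rose by 0.97 in glands (adjusted p = 0.0001768) but was not called in Kc cells (-0.16, adjusted p = 0.7851). With the mean of both, the Kc change of egr was -0.33 and not called (adjusted p = 0.09724). Without any 1 of the Kc arrays the Kc calls of p53 (adjusted p = 0.08001 to 0.1247) and egr (adjusted p = 0.1573 to 0.2204) were lost. puc, the phosphatase that restrains JNK, was the remaining gene called higher, at 0.67. The kinase gene hep of the JNK pathway fell by 1.19, the transcription factor gene foxo by 1.11 and the adaptor gene Traf6 by 0.53. Other probe sets of hep fell by 0.86 (adjusted p = 0.0001112) and 0.68 (adjusted p = 0.002056) in glands.

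By their brightest probe sets, genes listed here as steroid regulators of salivary gland death were lower where they were called in glands. This held for 5 of 7 measured against 23.6% of all genes, with a median of -0.46. The ecdysone receptor EcR fell by 1.36 (SE 0.139, limma adjusted p = 3.773e-05), from 9.19, 9.53 and 9.53 to 8.20, 8.19 and 7.78. fkh, a gland factor that holds back rpr and hid in larvae, fell by 0.97. CrebB fell by 0.58, br by 0.46 and usp, the partner of EcR, by 0.43. The H1 gland mean of CrebB (3.98) lay under the highest Tag value of 4.08. Other probe sets of br fell by as much as 2.94. For ftz-f1 and Eip93F, which act late in this cascade, the brightest probe sets were not called, at 0.26 for ftz-f1 and at background in all 4 groups for Eip93F. Another probe set of ftz-f1, dimmer in the mean over all 10 arrays, rose by 3.19 (adjusted p = 3.152e-06), from 5.93 ± 0.01 to 9.12 ± 0.54 (SD). In H1 glands it read above the first ftz-f1 probe set (7.24). A dimmer probe set of Eip93F was at background in nau glands and on 2 of 3 H1 arrays, and at least 1.19-fold higher in H1 glands (adjusted p = 0.001788). In Kc cells 0 of these 7 genes were called by limma.

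Genes of execution and engulfment showed small changes in glands, with 4 of 13 higher, 2 lower and a median of 0.12. Ced-12, an engulfment adaptor, rose by 0.52, Marf and Opa1, which fuse mitochondria, by 0.47 and 0.33, and crq, a receptor for dying cells, by 0.44. Drep4, a nuclease of the caspase-activated kind, fell by 0.61 and Drp1, which divides mitochondria, by 0.23. The Drp1 call was lost without each array but H1 gland array c (adjusted p = 0.05094 to 0.1229). The Ced-12 call was lost without any 1 Kc array, nau array a or b, or H1 gland array a (adjusted p = 0.05821 to 0.126). In Kc cells 0 of 13 were called by limma, with a median of -0.10. The gland changes of this list were all smaller than those of Dcp-1, Dark, Buffy and Debcl.

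**Figure D3:**
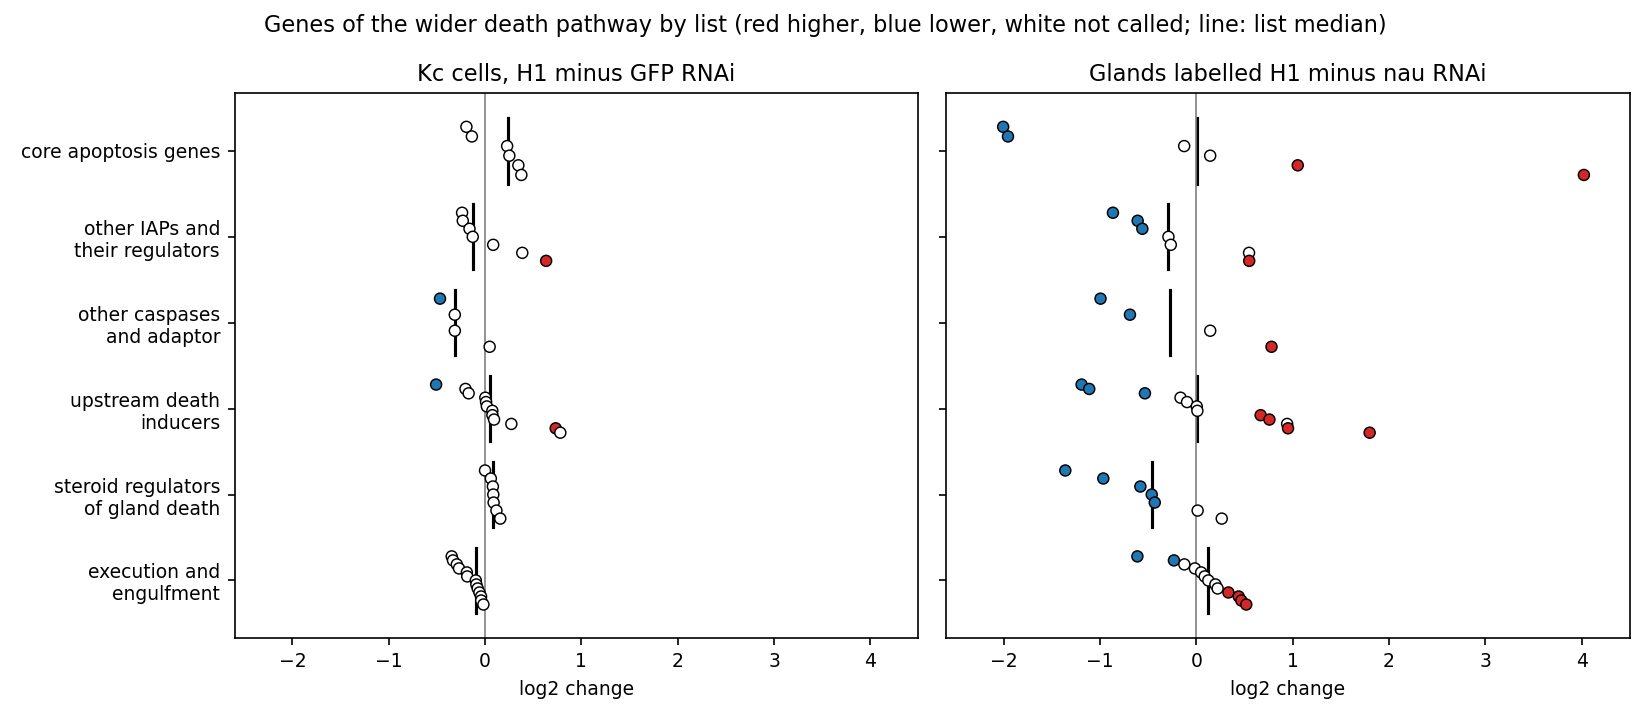
Log2 change with H1 RNAi (x axis) of every measured gene (points) of the core set and of the 5 wider lists, in Kc cells and in glands. Red points were called higher, blue lower and white not called, and a black line marks the median of a list, which in glands ran from -0.46 for the steroid regulators to 0.12 for execution and engulfment.

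Each measured member was set beside the nearest genes on the chromosome that had a probe set, up to 2 on either side. The order was the RefSeq gene order of assembly Release 6. Annotated genes without a probe set were passed over unless they overlapped the member, so a neighbour here need not be the next annotated gene. grim and Dronc lie on arm 3L, and Dark, Dcp-1, Buffy and Debcl on arm 2R. pita, which overlaps Dcp-1, fell by 0.37 in glands (limma adjusted p = 0.00805), and Rrp4 on the other side rose by 0.42 (adjusted p = 0.01645, and 0.05283 to 0.05869 without nau array b, nau array c or H1 array c). levy was not called, and ItgaPS5 was at background in both gland groups. The Dcp-1 increase was thus far larger than that of any of its 4 neighbours.

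Beside Debcl, 3 of the 4 measured neighbours were called higher with it, where 23.6% of all genes were called higher in glands. Fmo-2, a flavin monooxygenase gene, rose by 3.29 (SE 0.365, limma adjusted p = 6.608e-05) and sced by 1.72 (SE 0.172, adjusted p = 3.365e-05). Bap170, a subunit of a nucleosome remodelling complex, rose by 0.34 (adjusted p = 0.04713, a call lost without each array but nau array a, up to adjusted p = 0.1248), and Opbp was not called (-0.31). Beside Dark, Paip1 fell by 1.26 (adjusted p = 1.148e-06) and SmydA-7 by 0.44 (adjusted p = 0.004064), and Ehbp1 and SmydA-6, the latter at background, were not called. Beside Buffy, wal rose by 0.49 (adjusted p = 0.0003068) and Tret1-2 by 0.77 (adjusted p = 0.009002), opposite to Buffy. Tret1-1, at 11.73 in nau glands and 11.78 in H1 glands, was not called (0.05, adjusted p = 0.8028). CG13196, which overlaps Buffy, was at background in both gland groups.

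Beside grim, skl, a further antagonist of the inhibitors of apoptosis, was not called in glands (0.55, limma adjusted p = 0.1681). It read 2.55, 2.55 and 2.69 in nau glands and 4.01, 2.81 and 2.62 in H1 glands, so that 1 array alone rose over background. Of the 4 measured neighbours of grim none was called in glands, where CG32196 alone stood well above background, and of the 4 neighbours of Dronc none. In Kc cells the only neighbour called was CG32196 beside grim (-0.62, adjusted p = 0.04577), a call lost without each array but nau array c and H1 gland array a (adjusted p = 0.05606 to 0.3644).

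**Figure D4:**
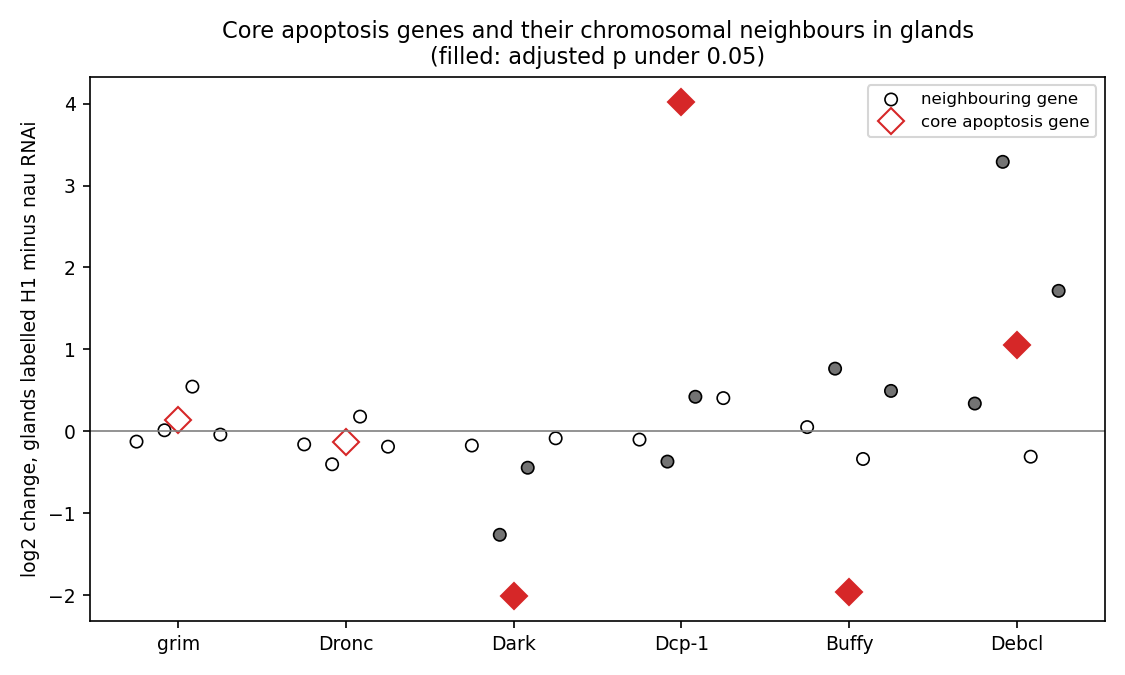
Log2 change in glands (y axis, labelled H1 RNAi minus nau RNAi) of each core apoptosis gene (diamonds) and of its measured neighbours (circles) in gene order. Filled symbols had an adjusted p under 0.05. Fmo-2 and sced rose beside Debcl, whereas no neighbour of Dcp-1 changed by more than 0.42.

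The genes whose levels ran most like each member over the 10 arrays were named by Pearson r, which is a description over 4 groups that share their arrays. CG14545 was closest to Dcp-1 (r = 0.999). It changed by 7.30 in glands and 0.17 in Kc cells. gbb, a BMP ligand, was closest to Dark (r = 0.994), the kinase gene Pkn to Dronc (r = 0.996), CG5391 to Buffy (r = 0.992) and CG5646 to Debcl (r = 0.996). For grim the highest r was 0.860, with CG43066.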

How the data were processed

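The deposited table held 1 array intensity per probe set on a linear scale, which the authors made with RMA per the submitters' processing notes. Its version, and whether cells and glands were processed together, are not given in the sources used here. The deposited intensities ran from 4.39 to 20761 and were taken to log2. Leaving out 183 Affymetrix controls left 18769 probe sets, of which 13647 carried 1 gene symbol, 402 several and 4720 none. The probe set with the highest mean stood for a gene. limma 3.58.1 in R 4.3.3 fitted a mean for each of 4 groups to all 10 arrays (lmFit, eBayes). The Benjamini-Hochberg adjustment covered all of these probe sets, with a call at adjusted p under 0.05. The script was tested on simulated data. Where the mean of a group lay under the Tag level, its arrays were raised to that level for an "at least" fold. The small number of arrays limits precision.

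The members and lists were chosen with earlier results of these data known. All members were named. From each wider list the up to 3 largest calls per direction were named, or all where a list had 5 or fewer calls. puc and Opa1, the fourth calls of their lists, and the dimmer probe sets and skl were named after their values were seen. No sequences or coordinates are given.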

Additional observations from a re-analysis of the deposited data

Results flagged for a closer look

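The effect of H1 RNAi was tested for a difference between glands and Kc cells (gland change minus Kc change, limma interaction, adjusted over all probe sets), and it passed for 19 of 29 named genes, among them 3 of the 6 core genes, where 32% of all genes passed. The 23 genes outside the core set were named for their change in glands or in Kc cells, which this test also uses, so the count of 19 is a description. On the log2 scale the differences were 3.77 for Dcp-1, 0.82 for Debcl and -2.38 for Dark.

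Among inhibitors of apoptosis and their regulators it was -1.50 for Bruce, which rose in Kc cells and fell in glands, 0.79 for Det and -0.48 for morgue. Among the other caspases it was -0.68 for Strica and 0.73 for Damm. The Damm value has no settled size, as Damm was under background in both Kc groups (3.29 and 3.33) and in nau glands (3.09). Among upstream inducers it was 1.07 for p53, 0.88 for lok, -1.19 for hep and -1.13 for foxo. For egr it was 1.27 by the brighter probe set, which fell in Kc cells and rose in glands. Among steroid regulators it was -1.52 for EcR, -1.05 for fkh, -0.64 for CrebB and -0.58 for br. Among execution and engulfment genes it was 0.56 for Marf and 0.63 for crq. The systems differ in tissue, delivery of the RNAi, duration and control target together, which cannot be told apart.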

How the results depend on the processing

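Over 24 results for single genes and 20 settings, 426 of 444 values kept their side of the threshold. Of the others, 16 passed it only in the alternative and 2 lost it, and 0 changed direction among called values. Uncalled values could change direction, as did Dronc in glands (-0.29 to 0.06 with single arrays left out). The losses were Dark in glands with its other probe set (-0.39, an alternative chosen after seeing the data) and the Debcl difference between systems when a 2-fold size was also required (0.82). The mean of all probe sets of a gene moved Dark in glands from -2.01 to -1.20 and called its lower level in control glands (-1.83). Quantile normalization called 5 of 6 genes as different between systems instead of 3, adding Dronc and Buffy. Over all probe sets it called 4849 of 18769 there, against 4855 in the main fit. Fitting a system alone called 2 of 6 genes in Kc cells instead of 0. Array weights called the Buffy difference (adjusted p = 0.01485) and the lower Dark level of control glands (adjusted p = 0.01579). The 4 gland calls of Dcp-1, Debcl, Dark and Buffy held without any single array, with Buffy from -2.36 to -1.54. With every array left out in turn the core genes called numbered 0 in Kc cells, 4 in glands, 3 to 4 for the difference and 4 to 5 between controls. For 39 further results, on the named genes of the wider lists, the called neighbours and nau, 637 of 741 values kept direction and call, 104 lost the call (30 of them through the 2-fold minimum) and 0 changed direction. Of these 39 results 10 lost the call when some array was left out. grim has no value under the filter on dim probe sets. Over all probe sets the Kc count of 771 became 2152 with a system fitted alone, 2368 with array weights, 305 with a 2-fold minimum and 274 to 916 without 1 array (289 and 284 when GFP array a or b was dropped, 316 and 274 when H1 array a or b was). The 2-fold minimum left 2323 of 7631 in glands, 2387 of 4855 for the difference and 5240 of 9614 between controls. The labels do not say what the array letters stand for. Deviations of same-letter arrays correlated at -0.0032 in Kc cells and -0.0722 to 0.0892 in glands. Those of different-letter arrays correlated at 0.0032 and -0.1374 to 0.0692. Such deviations, taken from means of 2 or 3 arrays, cannot settle whether arrays of a letter shared a culture or dissection. With the letter as a replicate block the Kc count was 447 of 18769 probe sets, and no call of a core gene changed. Signal at or near background limits grim everywhere, Buffy in Kc cells and the dimmer Dark probe set in glands, and Dcp-1 in nau glands lay between the Tag 95th percentile and the highest Tag value.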

Other observations

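Array a of the glands labelled H1 RNAi stood above its partners for elav, a neuronal RNA-binding protein gene and one of the neuron and glia markers above, whose highest sum (573) was on this array. elav read 7.78 there against 5.41 and 5.68 on the other arrays of the group, and 4.46, 4.13 and 4.15 in nau glands. Without this array the gland changes were 4.02 for Dcp-1, 1.14 for Debcl, -2.09 for Dark and -2.36 for Buffy.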
